A study of Mus musculus with 6 samples.

Results

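The genes described here are 10 members of the mammalian circadian clock (Per1, Per2, Per3, Cry1, Cry2, Arntl, Clock, Nr1d1, Nr1d2 and Dbp), taken by name from a table of 38561 genes; all 10 had a row and all 10 were among the 15498 genes tested. The values come from 6 RNA-seq libraries of the vomeronasal organ, the part of the nose specialised for pheromones, in males of the outbred mouse stock CD-1. RNA was pulled down from tissue lysate through S6, a ribosomal protein, in its phosphorylated form, a mark of recent neuronal activity. The labels put 3 libraries in a pup exposure group, here the pup libraries, and 3 in a control exposure group, the control libraries, whose exposure they do not describe. Both groups share strain, sex and tissue, and the labels name no genotype or drug, nor an age or an hour of collection. No label says that replicates are separate animals; a p-value therefore speaks only of the variation among these 6 libraries, which could be technical. In bulk RNA of this kind, fewer cells of a type and less RNA per cell cannot be told apart.

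The clock is a feedback loop that runs in nearly every cell. CLOCK and BMAL1, the product of Arntl, form a heterodimer that binds E-box sequences and drives transcription of the Per, Cry, Nr1d and Dbp genes. PER and CRY proteins then inhibit the heterodimer, while the nuclear receptors REV-ERB alpha (Nr1d1) and REV-ERB beta (Nr1d2) repress Arntl through ROR elements. In peripheral tissues Arntl RNA peaks nearly opposite to Nr1d1 and Dbp, the Per genes follow, and Cry1 comes later. The question put to the data was whether the 2 groups of libraries look like different times of day.

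RefSeq promoter windows on the GRCm38.p6 build, each 300 bases long from 250 before to 50 after a start, were matched to 9 members in 13 windows; Per2 had none matched. The letters searched on both strands were CACGTG (the E-box), TTATGNAA (the D-box, bound by DBP), TAGGTCA (the ROR element) and TGACGTC (most of the cAMP response element bound by CREB), and no hit in these windows overlapped another. Of 32851 promoter windows in the table, 7.15% held the E-box, 3.38% the D-box, 2.61% the ROR element and 3.21% the cAMP response element. The 5 member windows with a hit are shown because their letters match elements known from the loop, with the matching letters in capitals.
Per1 first window, chr11:69098699-69098998, plus strand: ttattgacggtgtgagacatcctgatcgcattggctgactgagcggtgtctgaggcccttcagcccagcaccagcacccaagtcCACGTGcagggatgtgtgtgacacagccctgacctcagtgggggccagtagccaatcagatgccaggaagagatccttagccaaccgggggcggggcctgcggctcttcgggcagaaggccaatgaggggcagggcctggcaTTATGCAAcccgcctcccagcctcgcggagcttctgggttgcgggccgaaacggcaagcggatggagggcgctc
Per1 second window, chr11:69099902-69100201, plus strand: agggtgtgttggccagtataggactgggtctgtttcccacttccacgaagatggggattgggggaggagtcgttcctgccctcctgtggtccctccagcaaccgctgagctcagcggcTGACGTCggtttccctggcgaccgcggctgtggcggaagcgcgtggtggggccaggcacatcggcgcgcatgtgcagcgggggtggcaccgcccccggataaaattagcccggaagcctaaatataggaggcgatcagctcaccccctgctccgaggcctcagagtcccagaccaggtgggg
Per3, chr4:151044616-151044915, minus strand: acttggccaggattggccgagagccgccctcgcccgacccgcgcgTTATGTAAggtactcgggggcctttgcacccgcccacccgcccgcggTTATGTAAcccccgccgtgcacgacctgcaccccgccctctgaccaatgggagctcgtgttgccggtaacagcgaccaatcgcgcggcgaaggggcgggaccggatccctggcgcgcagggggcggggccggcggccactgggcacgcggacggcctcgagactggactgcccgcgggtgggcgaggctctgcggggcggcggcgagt
Cry1, chr10:85185005-85185304, minus strand: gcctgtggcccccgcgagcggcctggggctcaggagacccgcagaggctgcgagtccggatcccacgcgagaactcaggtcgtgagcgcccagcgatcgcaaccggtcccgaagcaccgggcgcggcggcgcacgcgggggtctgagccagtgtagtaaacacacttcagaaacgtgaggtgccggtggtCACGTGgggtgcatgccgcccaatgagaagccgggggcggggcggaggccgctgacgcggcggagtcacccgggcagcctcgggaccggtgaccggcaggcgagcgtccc
Arntl second window, chr7:113207261-113207560, plus strand: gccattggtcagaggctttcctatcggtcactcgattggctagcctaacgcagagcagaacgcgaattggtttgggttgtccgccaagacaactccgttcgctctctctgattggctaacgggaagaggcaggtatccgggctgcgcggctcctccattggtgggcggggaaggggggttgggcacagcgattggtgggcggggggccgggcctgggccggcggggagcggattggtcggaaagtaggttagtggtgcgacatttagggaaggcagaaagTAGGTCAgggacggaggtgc
Counted from the start, the E-box began at -166 in Per1 and at -60 in Cry1, and the D-boxes at -24 in Per1 and at -205 and -158 in Per3. The cAMP response element of Per1 began at -132 of its second start, and the ROR element of Arntl at 31 after its second start. A match describes letters and not a bound site, and a window without one says nothing about the factor. Genes that share a motif differed in sign between groups: of the pair with an E-box, Per1 had a negative and Cry1 a positive log2 fold change, and of the pair with a D-box, Per1 had a negative and Per3 a positive one.

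Control replicate 3 stood apart, with the smallest TMM factor (0.605), 1019 reads of the 10 genes together beside 2255 and 2402 in the other control libraries, and 71.4% of its counts in 50 genes. Among the 10 genes, 3 (Per1, Nr1d1 and Dbp) had a lower mean in pup libraries and 7 a higher mean, and 0 passed an adjusted p of 0.05 in edgeR's quasi-likelihood test. The same test called 0 of 15498 genes (0%), the same share. DESeq2, which called 127 of the 12301 genes with an adjusted p (1.03%), and limma-voom, which called 8 of 15498 (0.0516%), also called 0 clock genes; DESeq2 gave Arntl no adjusted p. Below an unadjusted p of 0.05 edgeR had 1 member higher (Clock) and 1 lower (Per1), or 2 of 10, beside 11.0% of all genes (6.31% higher and 4.67% lower). Groups that did not overlap were found in 3 members (Clock and Per3 higher, Dbp lower), beside 19.8% of all genes (10.1% higher and 9.60% lower). A negative log2 fold change was found in 3 of 10 members and in 48.5% of all genes. The median log2 fold change of the 10 was 0.65, that of all genes tested 0.030. Without control replicate 3 the median was 0.50, all 10 signs were kept, 3 members were below an unadjusted p of 0.05, and the log2 fold change was 1.29 for Clock, -1.68 for Per1, 1.11 for Cry1 and -1.17 for Nr1d1. Of genes driven by the same heterodimer, Per1, Nr1d1 and Dbp were lower in mean and Per2, Per3 and Nr1d2 higher. Except for Per1, their 95% intervals of the log2 fold change included 0, so these signs are not settled. The labels give no hour of collection, so a difference in time of day was not tested.

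**Figure D1:**
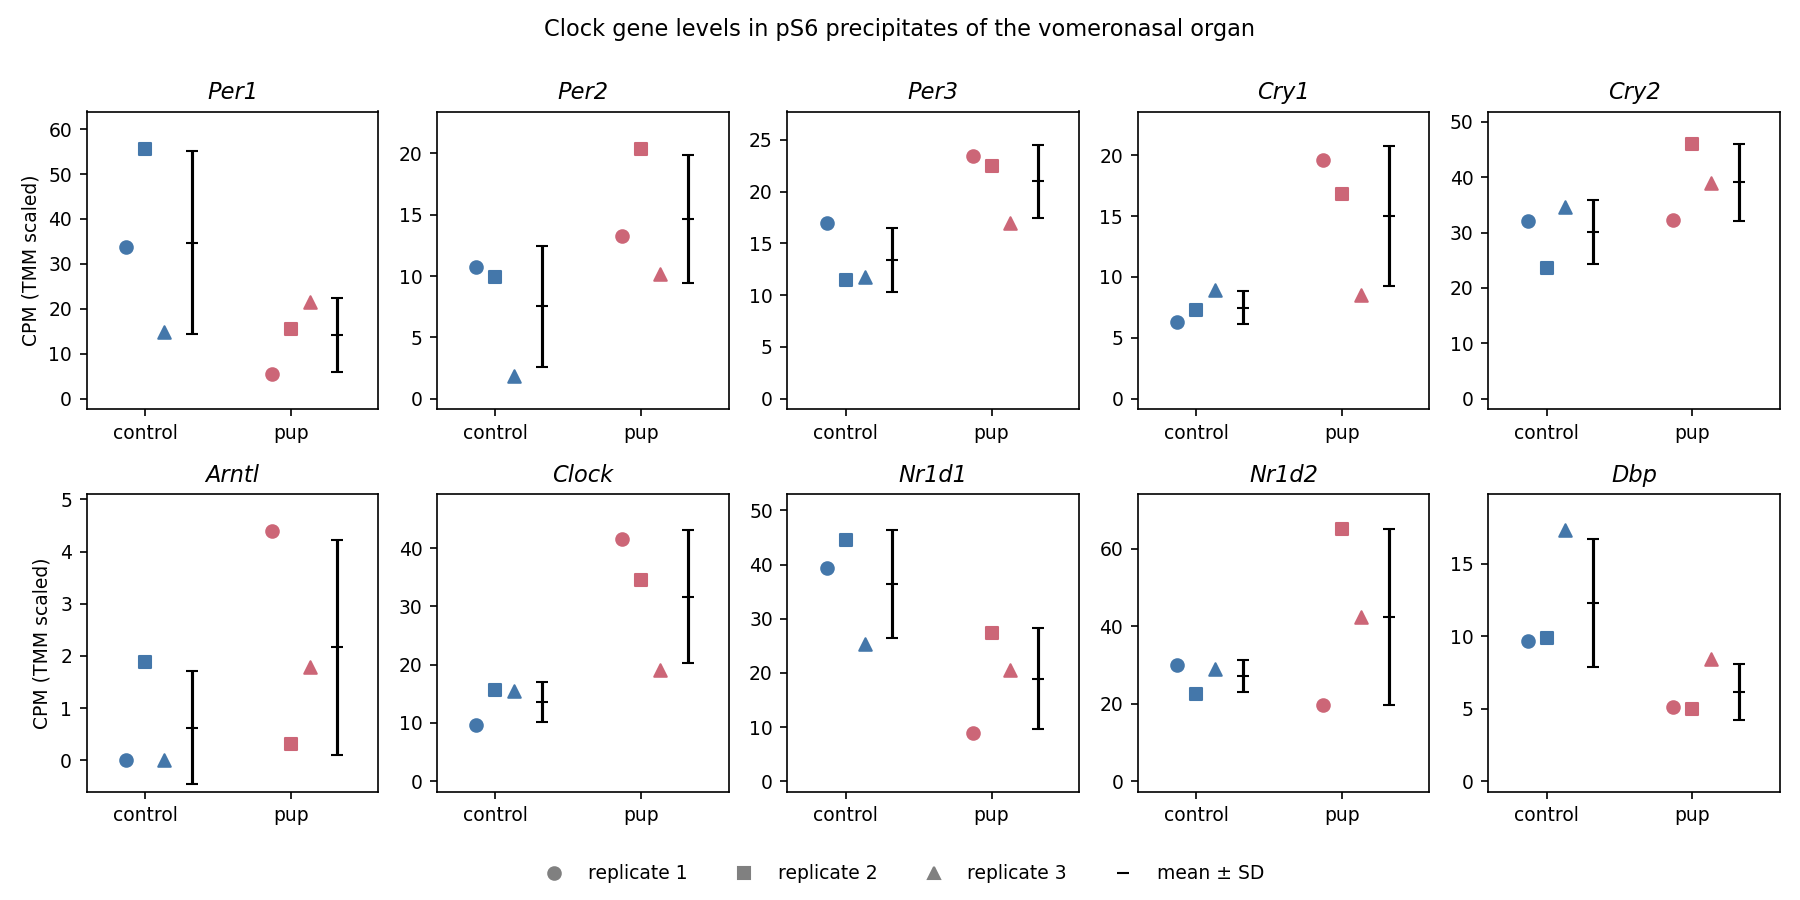
Level of each of the 10 clock genes in CPM (counts relative to the TMM-scaled library size, y axis) in the 3 control exposure (blue) and 3 pup exposure (red) libraries; marker shape gives the replicate, and the black bar the group mean ± SD. Clock, Per3 and Dbp are the genes whose groups do not overlap, and Arntl lies at 0 in 2 control libraries.

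Clock and Arntl encode the activating pair. Clock (ENSMUSG00000029238, chromosome 5 from 76209868 to 76304792, GRCm38, minus strand) was at 9.64, 15.6 and 15.5 CPM in control replicates 1, 2 and 3 and at 41.5, 34.5 and 19.1 CPM in pup replicates 1, 2 and 3. Every pup library was above every control library, with pup replicate 3 close to the control range. Mean levels were 13.6 ± 3.40 CPM in control and 31.7 ± 11.4 CPM in pup libraries (SD, n = 3 each), 2.34-fold apart. Its log2 fold change of 1.23 (SE 0.43, 95% interval 0.30 to 2.16) had the smallest p of the 10, with an edgeR unadjusted p of 0.0139 and an adjusted p of 0.424.

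Arntl (ENSMUSG00000055116, chromosome 7 from 113207465 to 113314126, plus strand) was barely detected. It had 0, 21 and 0 reads in control libraries and 82, 9 and 36 reads in pup libraries. The libraries at 0 allow a level of up to 0.235 CPM in control replicate 1 and 0.469 CPM in replicate 3 (the limit at 3 counts, counting error only). Control replicate 2, at 1.88 CPM, lay between pup replicate 2 at 0.319 CPM and replicate 1 at 4.40 CPM, so the groups overlapped. The log2 fold change was 1.73 with an SE of 1.52 and a 95% interval from -1.58 to 5.04, which leaves its direction undetermined. Single libraries decide its size: it was 0.68 without pup replicate 1 and 8.22 without control replicate 2, where every control library left is at 0 and the value depends on the prior count (edgeR adjusted p = 0.646, unadjusted p = 0.00887).

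The Period genes encode the PER inhibitors, and their mean differences were not all of the same sign. Per1 (ENSMUSG00000020893, chromosome 11 from 69095217 to 69109960, plus strand), which is also induced by neuronal activity and by glucocorticoids, was at 33.8, 55.6 and 14.8 CPM in control libraries and at 5.42, 15.6 and 21.6 CPM in pup libraries. Control replicate 3 was below pup replicates 2 and 3, so the groups overlapped although the means were 34.7 ± 20.4 and 14.2 ± 8.19 CPM (SD, n = 3 each). Its log2 fold change was -1.29 (SE 0.57, 95% interval -2.54 to -0.044), with an edgeR unadjusted p of 0.0436 and an adjusted p of 0.447. It was -0.81 without control replicate 2, the highest library.

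Per2 (ENSMUSG00000055866, chromosome 1 from 91415982 to 91459324, minus strand) was at 10.7, 9.95 and 1.88 CPM in control libraries and at 13.3, 20.4 and 10.2 CPM in pup libraries. Control replicate 3, with 12 reads of the gene, stood below the other 5 libraries. The log2 fold change was 0.94 (SE 0.59, edgeR adjusted p = 0.558), and 0.47 without that library. Per3 (ENSMUSG00000028957, chromosome 4 from 151003652 to 151044665, minus strand) was at 16.9, 11.5 and 11.7 CPM in control libraries and at 23.5, 22.5 and 17.0 CPM in pup libraries. The groups did not overlap, by a margin within rounding between control replicate 1 and pup replicate 3, and the log2 fold change was 0.65 (SE 0.39, edgeR adjusted p = 0.544).

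Cryptochromes are the partners of PER in the inhibitory complex. Cry1 (ENSMUSG00000020038, chromosome 10 from 85131700 to 85185064, minus strand) was at 6.27, 7.26 and 8.91 CPM in control libraries and at 19.6, 16.8 and 8.55 CPM in pup libraries. Pup replicates 1 and 2 were above all control libraries and replicate 3 lay within them. Its log2 fold change of 1.01 (SE 0.46) had a 95% interval from -0.00014 to 2.01 and an edgeR adjusted p of 0.455. Cry2 (ENSMUSG00000068742, chromosome 2 from 92403646 to 92434043, minus strand) varied least of the 10 on the log2 scale, with 32.1, 23.6 and 34.7 CPM in control libraries and 32.2, 46.0 and 39.0 CPM in pup libraries. The log2 fold change was 0.38 (SE 0.35, 95% interval -0.40 to 1.15, edgeR adjusted p = 0.693), and 0.23 without control replicate 2.

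Nr1d1 and Nr1d2 encode the REV-ERB repressors, paralogs whose RNAs rise at similar hours in other tissues. Here their mean differences had opposite signs. Nr1d1 (ENSMUSG00000020889, chromosome 11 from 98767932 to 98775333, minus strand) was at 39.3, 44.6 and 25.3 CPM in control libraries and at 8.90, 27.3 and 20.5 CPM in pup libraries. Pup replicate 1 was the lowest library, and replicate 2 lay just above control replicate 3. The log2 fold change was -0.94 (SE 0.45, 95% interval -1.94 to 0.049, edgeR adjusted p = 0.466), and -0.61 without pup replicate 1. Nr1d2 (ENSMUSG00000021775, chromosome 14 from 18204054 to 18239127, minus strand) was at 29.9, 22.4 and 29.1 CPM in control libraries and at 19.7, 65.1 and 42.3 CPM in pup libraries. The pup libraries thus lay on both sides of the control libraries, and the log2 fold change was 0.65 (SE 0.44, edgeR adjusted p = 0.587), or 0.20 without pup replicate 2 and 0.99 without pup replicate 1.

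Dbp encodes a D-box activator that carries the rhythm to output genes. Dbp (ENSMUSG00000059824, chromosome 7 from 45705088 to 45710203, plus strand) was at 9.64, 9.86 and 17.3 CPM in control libraries and at 5.09, 4.99 and 8.41 CPM in pup libraries. All pup libraries were below all control libraries, with means of 12.3 ± 4.39 and 6.16 ± 1.94 CPM (SD, n = 3 each), 1.99-fold apart. The log2 fold change of -0.99 (SE 0.47) had a 95% interval from -2.02 to 0.044 and an edgeR adjusted p of 0.466. It was -0.69 without control replicate 3, the highest library.

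**Figure D2:**
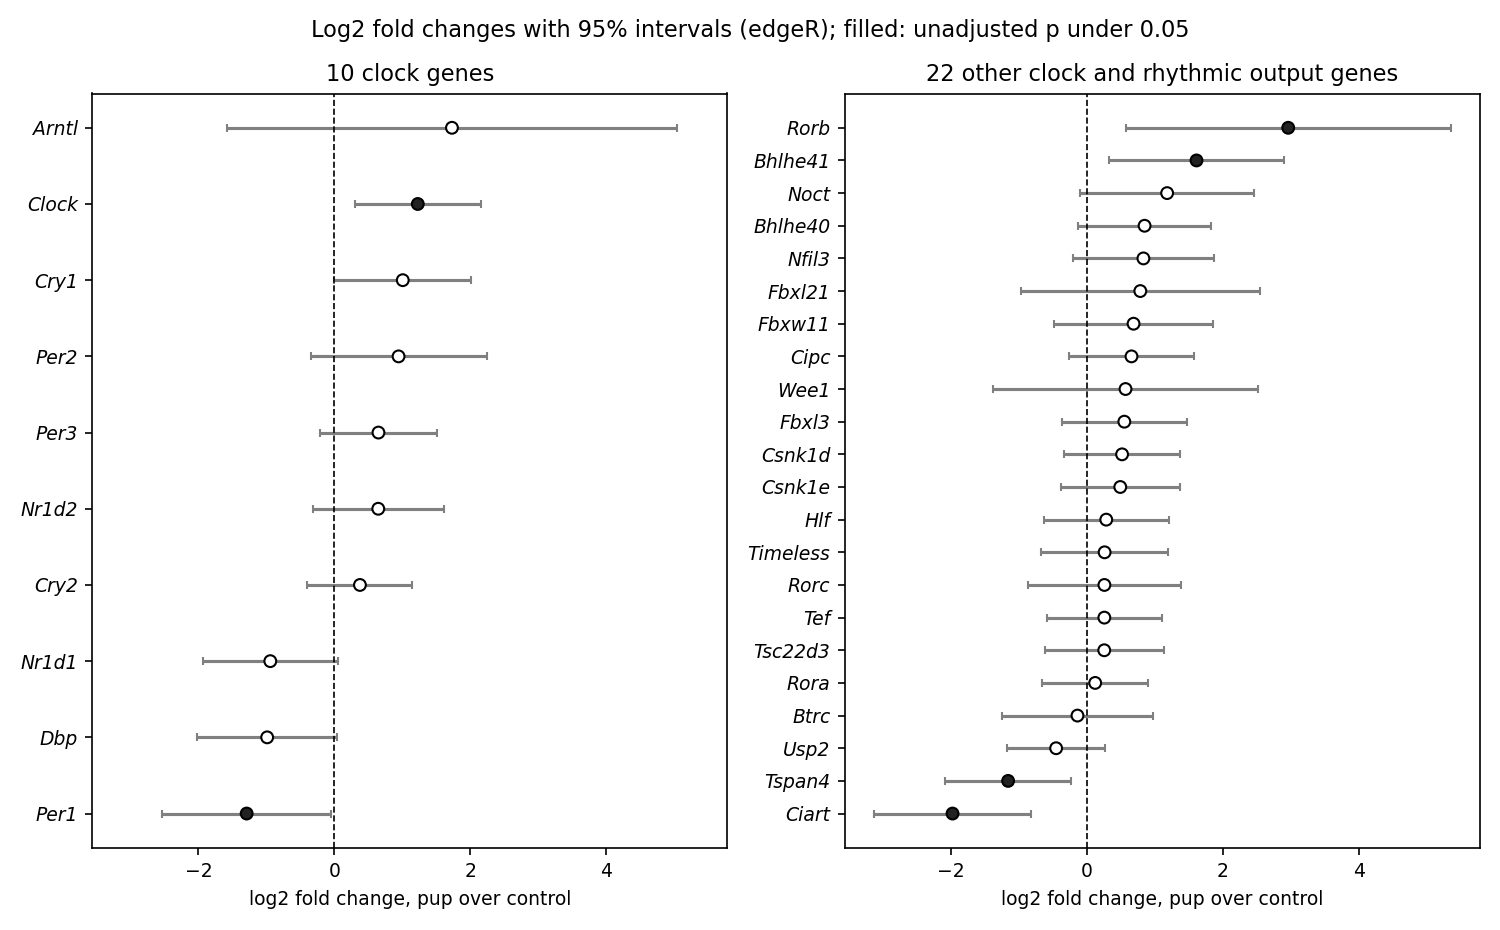
Log2 fold change (pup exposure over control exposure, x axis) with its 95% interval from edgeR for the 10 clock genes (left) and 22 other clock and rhythmic output genes (right); filled points have an unadjusted p below 0.05. Among the 10, Clock and Per1 are filled on opposite sides of 0, and on the right Ciart is the gene farthest below 0.

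Genes were compared per exon length, which joins the annotated exons of all transcripts of a gene. It can exceed the longest transcript, and the order under another length was not computed. On this scale Nr1d1 had the highest mean of the 10 over both groups, at 8.99 ± 4.18 CPM per kb of exon (SD, n = 6 libraries). Nr1d2 followed at 6.42 ± 3.10, Cry2 at 5.47 ± 1.19, Per1 at 4.35 ± 3.17, Cry1 at 3.36 ± 1.66 and Dbp at 3.08 ± 1.51 on the same scale. Below them came Per2 at 1.89 ± 1.02, Per3 at 1.79 ± 0.532, Clock at 1.65 ± 0.909 and Arntl at 0.186 ± 0.226 (SD, n = 6 libraries each). Each gap between neighbours in this order was smaller than the larger of their SDs except that between Clock and Arntl. The order differed between groups at the top. Nr1d1 was highest in the control libraries, with a mean of 11.8 CPM per kb beside 5.01 for Nr1d2 and 4.77 for Cry2. In the pup libraries the means were 6.15 for Nr1d1, 7.83 for Nr1d2 and 6.18 for Cry2, and Nr1d2 was above Nr1d1 in 3 of 3. Over both groups, the mean level of Nr1d1 stood above 78.0% of the genes tested and Arntl above 2.42%.

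**Figure D3:**
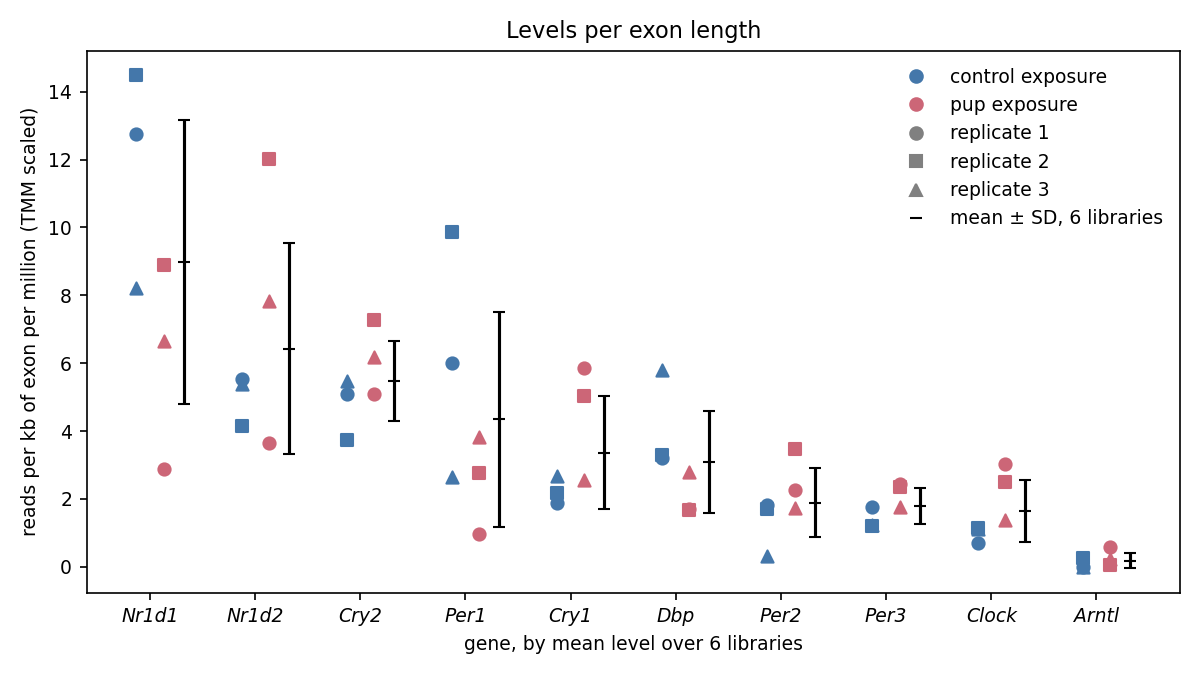
Levels per exon length (CPM per kb of exon) of the 10 genes in each library, ordered by their mean over the 6 libraries; blue is control exposure, red pup exposure, and black bars give the mean ± SD of 6 libraries. From Nr1d1 at 8.99 to Clock at 1.65 the ranges of neighbours overlap, and Arntl at 0.186 lies apart.

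Ratios taken inside a library do not depend on how libraries are scaled. Of 14 ratios computed, 4 did not overlap between groups, beside 19.8% of all genes tested singly. For Dbp to Clock this was fixed beforehand, as Dbp by itself was apart and lower and Clock by itself apart and higher. The share over all pairs of genes was not computed, and many of the 14 ratios share a gene. Dbp to Arntl, which move in opposite phase elsewhere, had at least 41 Dbp reads per Arntl read in control replicate 1 and at least 37 in replicate 3, with Arntl set to 3 reads where it had 0. In control replicate 2 the ratio was 5.24, and in pup libraries it was 1.16, 15.7 and 4.72 in replicates 1, 2 and 3. Control replicate 2 thus lay within the pup range, and the difference in mean log2 ratio of -3.93 rests on the 0.5 added to every count before the ratio was taken; it was -2.31 with 3 added. Nr1d1 to Arntl gave at least 167, 23.7 and at least 54 in control libraries and 2.02, 85.8 and 11.5 in pup libraries, which also overlapped. Per2 to Arntl overlapped too, with at least 45.7, 5.29 and at least 4 in control and 3.02, 63.9 and 5.72 in pup libraries.

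Against its paralog Nr1d2, Nr1d1 was lower in every pup library. The log2 ratio of Nr1d1 to Nr1d2 was 0.39, 0.99 and -0.20 in control libraries and -1.15, -1.25 and -1.04 in pup libraries. The pup libraries lay close together, with a mean of -1.15 ± 0.10 beside 0.40 ± 0.59 for the controls (SD, n = 3 each). Per1 to Per2 likewise did not overlap, with log2 ratios of 1.65, 2.48 and 2.93 in control libraries and -1.29, -0.38 and 1.08 in pup libraries. Cry1 to Cry2 overlapped, at -2.35, -1.69 and -1.95 against -0.72, -1.45 and -2.19. Set against Clock, Dbp (0, -0.66 and 0.16 against -3.02, -2.78 and -1.18) and Nr1d1 (2.02, 1.51 and 0.71 against -2.22, -0.34 and 0.10) did not overlap between groups, and Per1 did. The planned ratios were Dbp, Nr1d1 and Per2 to Arntl and Per1 to Per2. Every other ratio, among them Nr1d1 to Nr1d2 and Cry1 to Cry2, was not planned. The ratios to Clock were chosen after the values of the genes were seen and share 1 denominator, a gene whose own groups did not overlap. All ratios are given without a test.

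**Figure D4:**
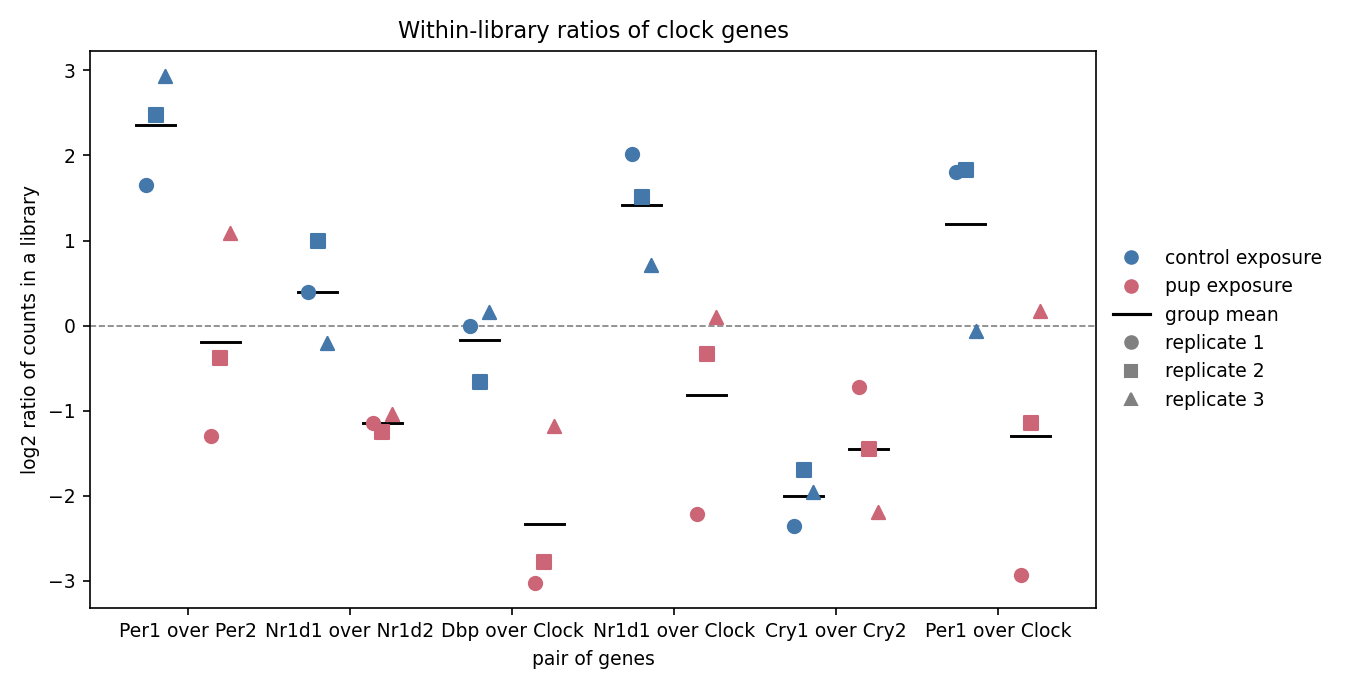
Log2 ratio of the counts of a pair of clock genes in each library (y axis); blue is control exposure, red pup exposure, marker shape the replicate and the black line the group mean. Per1 over Per2, Nr1d1 over Nr1d2, Dbp over Clock and Nr1d1 over Clock do not overlap between groups, while Cry1 over Cry2 and Per1 over Clock do.

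Levels of the clock genes varied among the libraries of a group. The same spread over all genes was not set beside it, and genes in general varied between replicates (common BCV 0.535). Each gene was centred on its mean log2 CPM over the 6 libraries, and profiles were compared by the root mean square difference. Control replicates 1, 2 and 3 had Per1 at 0.80, 1.52 and -0.38 and Per2 at 0.23, 0.13 and -2.21, the last from 12 reads. Pup replicate 1 had the lowest Per1 (-1.81) and Nr1d1 (-1.45) and the highest Clock (1.05) and Arntl (2.69). Pup replicate 3 was near the middle for most genes, with Clock at -0.064, Cry1 at -0.26, Per3 at 0.036 and Nr1d1 at -0.26. Of the members, Clock and Cry1 had the most similar profiles (0.19), beside their own spreads of 0.71 and 0.60. Per3 and Cry2 (0.33), Nr1d2 and Cry2 (0.36) and Per1 and Nr1d1 (0.44) came next among nearest pairs. The spread of Cry2 itself was 0.29, smaller than its distance to either partner, while those of Per1 and Nr1d1 were 1.04 and 0.75. Over all tested genes, those closest to Clock were Dlg2, which encodes a postsynaptic scaffold protein (0.10), Mark2, for a kinase of microtubule-associated proteins (0.13), and Zfyve9, for an adaptor of TGF-beta signalling (0.13), each over 6 libraries.

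**Figure D5:**
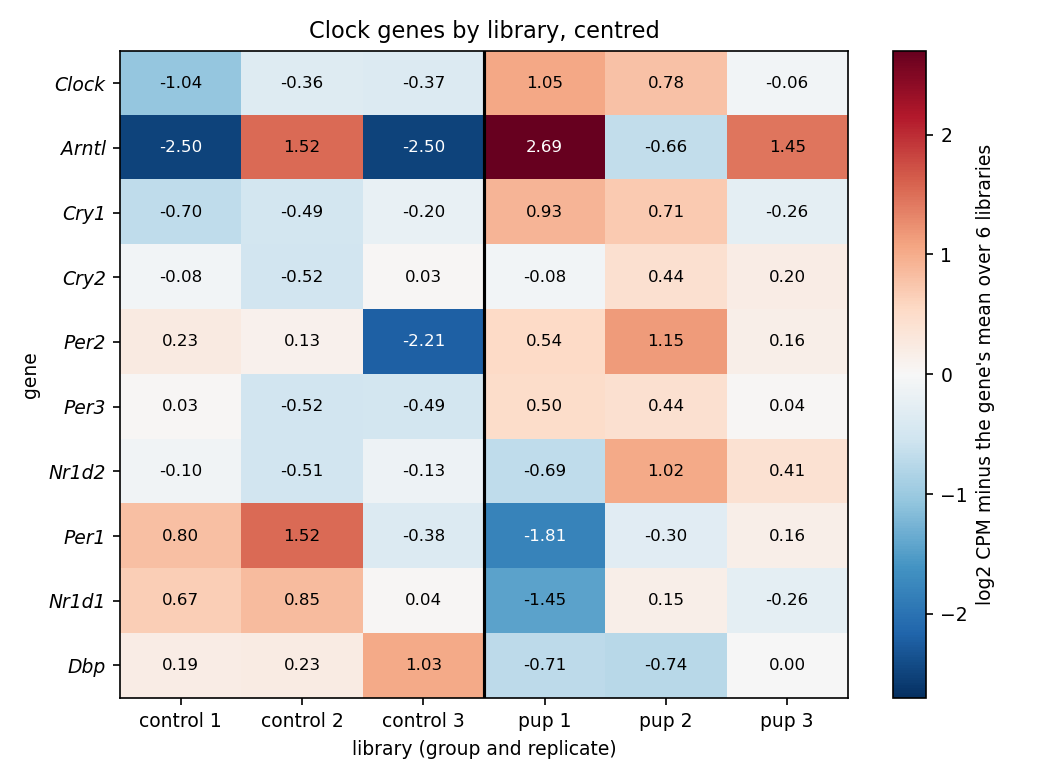
Log2 CPM of each clock gene minus its mean over the 6 libraries (colour and number), for control libraries (left of the line) and pup libraries (right). Pup replicate 1 holds the lowest Per1 (-1.81) and Nr1d1 (-1.45) and the highest Arntl (2.69), and pup replicate 3 stays closer to 0 for most genes.

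The rest of the clock network, listed from textbook membership, had 19 core genes, of which 17 were tested, and 5 rhythmic output genes. Neither list had a gene past the adjusted threshold in edgeR, and DESeq2 called 1, Ciart, beside 1.03% of all genes with an adjusted p. Of the 17 core genes 15 had a positive log2 fold change (median 0.52), with 2 higher and 1 lower below an unadjusted p of 0.05, beside 6.31% and 4.67% of all genes; 48.5% of all genes had a negative value. Of the 5 output genes 3 were positive (median 0.25), with 0 higher and 1 lower. Ciart, a repressor of the CLOCK and BMAL1 pair, was at 19.8, 9.95 and 13.8 CPM in control libraries and at 1.77, 4.99 and 4.25 CPM in pup libraries. All pup libraries were below all control libraries, with a log2 fold change of -1.98 (SE 0.53), an edgeR adjusted p of 0.395 and a DESeq2 adjusted p of 0.0357. In the other 13 alternatives its adjusted p was between 0.101 and 0.831.

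Bhlhe41, an E-box repressor also called DEC2, was at 2.82, 6.63 and 9.06 CPM in control libraries and at 7.08, 25.0 and 24.0 CPM in pup libraries (log2 fold change 1.61, SE 0.59, edgeR adjusted p = 0.424). Pup replicate 1 lay within the control range. Rorb, an activator at ROR elements, was at 0.862, 0.897 and 0.938 CPM in control libraries and at 0.322, 17.2 and 3.51 CPM in pup libraries, and its log2 fold change of 2.96 (SE 1.10, edgeR adjusted p = 0.424) was 1.08 without pup replicate 2. Tspan4, a tetraspanin that oscillates with the clock in many mouse organs, was at 22.1, 20.4 and 30.9 against 9.38, 7.79 and 15.7 CPM, without overlap (log2 fold change -1.16, SE 0.43, edgeR adjusted p = 0.424).

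Several relatives had overlapping groups. Bhlhe40, the paralog of Bhlhe41 (log2 fold change 0.85), Nfil3, a D-box repressor (0.83), and the DBP paralogs Tef (0.26) and Hlf (0.28) were among them. Usp2, a deubiquitinase with strong rhythms in many organs, was at 47.6, 55.9 and 50.3 CPM in control libraries and at 40.5, 39.3 and 32.6 CPM in pup libraries, without overlap (log2 fold change -0.45, SE 0.33, edgeR adjusted p = 0.605). Noct, a clock-regulated phosphatase, had a log2 fold change of 1.18 (SE 0.59, edgeR adjusted p = 0.479). Npas2, which can stand in for CLOCK, and Arntl2, the paralog of Arntl, were too low to test, with 2, 6 and 6 against 6, 86 and 36 reads for Npas2 and 9, 0 and 0 against 0, 0 and 4 reads for Arntl2.

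Some reads of these genes cannot be assigned with certainty, because no strand marking is given in the protocol and exons on the opposite strand overlap. Dbp shares 539 bases, 18.0% of its exon length, with Sphk2, a sphingosine kinase, and Nr1d1 shares 263 bases, 8.55%, with Thra, the thyroid hormone receptor alpha gene. Sphk2 was at 27.0, 22.4 and 20.3 CPM in control libraries and at 1.02, 26.1 and 18.9 CPM in pup libraries, so pup replicate 1 was far below the other 5 libraries in Sphk2 while its Dbp level was near that of replicate 2. Thra was at 13.6, 27.3 and 42.8 against 19.8, 16.4 and 20.6 CPM, and its groups overlapped. Cry2 shares 4.67% of its exon length with D930015M05Rik, which had at most 6 reads in a library. Of the 50-base words of the longest transcript, 27.5% in Dbp, 8.23% in Nr1d1, 6.00% in Nr1d2 and 2.73% in Cry2 also occur in a transcript of another gene, and 0% in the other 6 members.

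Total counts were 10590716 to 11240065 in the control libraries and 18199476 to 20871266 in the pup libraries, so depth was separated by group, and the 10 genes together had 1019 to 7159 reads per library, or 0.00962% to 0.0351% of the counts. The TMM factor was 0.605 to 1.39. The tissue label was matched by Omp, a marker of mature chemosensory neurons, at 664 to 922 CPM, and by the G protein subunits Gnai2 and Gnao1. The summed CPM of 8 vomeronasal neuron markers overlapped between groups (1509 to 1549 in control and 1349 to 1630 CPM in pup libraries), and so did those of 8 gland (277934 to 908556 against 190804 to 460832 CPM), 7 endothelial (9.41 to 22.8 against 21.3 to 39.8 CPM) and 5 glial markers (108 to 137 against 114 to 117 CPM). Without Omp the neuron sum also overlapped (588 to 780 against 686 to 848 CPM). The neuron markers Ano2 (17.8, 20.9 and 18.3 against 31.9, 48.7 and 38.8 CPM) and Ano1 (62.8, 43.4 and 50.8 against 74.4, 93.9 and 83.9 CPM) were higher without overlap. Their log2 fold changes were 1.07 and 0.68 (edgeR adjusted p = 0.421 and 0.486). The sums of 7 sustentacular (3887 to 4490 against 1586 to 2324 CPM), 5 red cell (205 to 591 against 52.6 to 168 CPM) and 7 macrophage markers (91.0 to 102 against 44.2 to 72.9 CPM) did not overlap. In these lists 5 of 6, 4 of 4 and 6 of 7 tested members were negative, beside 48.5% of all genes. By themselves 4, 3 and 2 members were apart and lower, beside 9.60% of all genes. Apart and higher were 2 neuron markers and 1 endothelial marker (Tek), beside 10.1% of all genes. Without Cd68, its most abundant member, the macrophage sum overlapped (56.8, 58.3 and 58.1 against 63.5, 31.5 and 41.3 CPM). The sustentacular sum without Cbr2 (934 to 1298 against 651 to 791 CPM) and the red cell sum without Hbb-bs (111 to 289 against 31.5 to 96.4 CPM) did not. Leaving out the most abundant marker was chosen after seeing the data. Markers at 0 reads in some library were Tek, Cdh5 and Tie1 of the endothelial, Alas2 and Hba-a2 of the red cell and Ermn of the sustentacular list, and no listed marker of neurons, glands, glia or macrophages was. The part of cell makeup, depth or collection hour in the differences above was not tested.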

How the data were processed

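Immunoprecipitated RNA was reverse transcribed with a low-input method, and the cDNA was sheared, per the labels' protocols. The authors deposited 1 table of raw read counts per Ensembl gene in 6 columns. The submitters' processing notes name GRCm38 as genome build; no source used here names an aligner, a counting program or an annotation release. Names, positions and exon lengths came from GENCODE M21, in which 36639 of 38561 IDs matched; Trpc2 and Lcn14 were not matched and not analysed here.

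Genes were kept by filterByExpr (minimum count 10, minimum total 15) and scaled by TMM. Groups were compared with edgeR 4.0.16 in R 4.3.3 (quasi-likelihood test, intercept and group), adjusted by Benjamini-Hochberg over all genes tested, and called below 0.05. The common BCV, the relative spread between replicates, was 0.535. Standard errors come from the F statistic. On simulated counts the fit was checked only for returning, as medians, the log2 fold changes put in. The share of genes called was not part of that check. Within groups, libraries differed beyond counting noise (chi-square over its degrees of freedom at least 94.0), which technical variation could also give. Each library was counted as 1 sample, and this value does not show that they are separate animals. Alternatives were RLE scaling, library totals, no filter, a stricter filter (1 CPM in 3 libraries, 50 counts in all), DESeq2 1.42.0, limma-voom (limma 3.58.1), the replicate block, thinning to the smallest total and leaving out each library. The members and lists were chosen with earlier results of these data known.

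Named were all 10 members, up to 4 genes with the smallest p per other list, clock and output genes below an unadjusted p of 0.05, genes overlapping a member's exons and the 3 genes nearest to the member with the smallest p. Nfil3, Tek, Cdh5, Tie1, Alas2, Hba-a2, Ermn, Cd68, Cbr2, Hbb-bs, Tef, Hlf, Npas2, Arntl2, Tsc22d3, Fkbp5, Fos and Omp were named after their values were seen. The motif letters were chosen with the promoter sequences in view.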

Additional observations from a re-analysis of the deposited data

How the results depend on the processing

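Under all 14 alternatives 0 clock members passed the adjusted threshold and each of the 10 kept the sign of its log2 fold change. Members below an unadjusted p of 0.05, 2 in the fit reported, were 4 in DESeq2, 1 with the replicate block, 1 after thinning, and 0 to 4 with single libraries left out (0 without control library 1, 4 if pup library 3 was dropped). Over all genes 0 were called in the fit reported, beside 120 without a filter, 127 in DESeq2 and 8 in limma-voom. The other clock and output genes had 0 calls, and 1 in DESeq2. The members' median log2 fold change of 0.65 was 0.96 with library totals only, where the median of all genes was 0.31, and 0.43 to 0.79 with single libraries left out (0.43 without pup exposure replicate 2). The Dbp to Arntl difference of -3.93 ran from -5.76 to -2.97 with single libraries left out and was -2.31 with a count of 3 added, an alternative chosen after seeing the data. Same-numbered libraries deviated together with correlations of -0.035, 0.18 and 0.075, and 3 of 6 libraries correlated best with their own number. With so few libraries per group these values cannot show whether the numbers pair the samples. The cause of the shifts between settings was not tested. The log2 fold change of Arntl, 1.73, was 3.59 with the replicate block and 2.66 in limma-voom. Arntl had the fewest reads of the 10 in every library (0 to 82), and the part of depth in its spread was not tested.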

Other observations

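Genes induced by neuronal activity through CREB and related factors, which also act on Per1, differed in sign. Of 11 listed, 7 had a positive log2 fold change, 2 positive and 1 negative gene were below an unadjusted p of 0.05 (beside 6.31% and 4.67% of all genes), and 0 passed the adjusted threshold in edgeR (median 0.29). Egr1, a zinc finger factor, was at 18.6, 30.1 and 17.5 CPM in control libraries and at 42.5, 62.4 and 46.1 CPM in pup libraries, without overlap (log2 fold change 1.19, SE 0.38, edgeR adjusted p = 0.405). Btg2, an antiproliferative early gene, had a log2 fold change of 1.14 (SE 0.44) with overlapping groups. Nr4a3, an orphan nuclear receptor, was at 7.92, 16.9 and 7.66 against 5.47, 3.75 and 5.64 CPM, also without overlap and in the direction of Per1 (-1.13, SE 0.51, edgeR adjusted p = 0.450). Fosb had a log2 fold change of 1.87 (SE 1.05) with overlapping groups. Fos was higher without overlap (27.9, 37.8 and 26.4 against 41.6, 55.7 and 40.5 CPM). Groups were thus apart and higher in 2 of the 11 and lower in 1, beside 10.1% and 9.60% of all genes.

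Glucocorticoid targets were listed because Per1 is one of them and because the hormone has a daily rhythm. Of 9 listed, 6 had a positive log2 fold change (median 0.32), 0 were below an unadjusted p of 0.05 in edgeR (11.0% of all genes) and 0 passed the adjusted threshold. Dusp1, a MAP kinase phosphatase, came first by p (log2 fold change 1.09, SE 0.51), followed by Errfi1, a feedback inhibitor of EGF receptors (0.63, SE 0.36), and by Cdkn1a, a cell cycle inhibitor (-0.60, SE 0.38). The rhythmic glucocorticoid target Tsc22d3 was at 82.4, 46.1 and 31.9 CPM in control libraries and at 60.4, 65.1 and 66.0 CPM in pup libraries, with overlapping groups (log2 fold change 0.25, SE 0.40, and -0.040 without control replicate 3). Fkbp5, a chaperone of the glucocorticoid receptor, had a log2 fold change of -0.13 (SE 0.46, 95% interval -1.13 to 0.87).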
